A study of Mus musculus with 8 samples.

Results

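Il17a, Il17f, Il23r and Ccr6, 4 genes of type 17 immunity, were followed across bone marrow T cells of a Runx1::Runx1t1 knock-in mouse and its controls. They were found by symbol, with 1 row each among 32285 genes in the 4 gene expression libraries. Mice were C57BL/6. The fusion pools came from Runx1Runx1t1/+; Mx1-Cre mice, labelled RUNX1::RUNX1T1, and the control pools from sex-matched littermates that carried the same Runx1Runx1t1/+ allele without Mx1-Cre, labelled WT. All mice received poly(I:C), which switches on the interferon-inducible Mx1 promoter and so Cre in blood-forming cells, among others, and the fusion allele marks the cells that express it with mCherry. Marrow T cells were enriched, CD3+ mCherry- cells were sorted, and each pool of mice gave a 5′ single-cell library and a T cell receptor library, with 2 pools per group. The sorted T cells therefore lacked the fusion reporter themselves. The age of the mice was not given in the sources used here, and which litters went into which pool is not given there either. The p-values measure the spread between these pools.

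IL-17A and IL-17F are secreted cytokines that act as homodimers or as a heterodimer on epithelial and stromal cells, where they call in neutrophils. Il23r encodes the subunit particular to the IL-23 receptor, which through STAT3 keeps type 17 cells going, and Ccr6 encodes the receptor for the chemokine CCL20, which draws these cells to barrier tissues. The program is known from Th17 cells among Cd4 T cells, from subsets of gamma-delta T cells, from mucosal-associated invariant T (MAIT) cells, whose mouse receptor alpha chain joins TRAV1 to TRAJ33, and from a subset of invariant natural killer T (iNKT) cells, whose alpha chain joins TRAV11 to TRAJ18. Ccr6 is also carried by regulatory and memory T cells and by B cells.

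In GRCm38, by the GENCODE vM21 annotation, Il17a (ENSMUSG00000025929) lies on chromosome 1 from 20730905 to 20734496 on the plus strand, and Il17f (ENSMUSG00000041872) lies near it on the minus strand from 20777146 to 20790617. Il23r (ENSMUSG00000049093) spans 67422932 to 67491855 on the minus strand of chromosome 6, and Ccr6 (ENSMUSG00000040899) spans 8236043 to 8257141 on the plus strand of chromosome 17. The promoters are shown because Il17a, Il17f and Il23r were called higher in Trdc than in Cd4 T cells, described further on, while the Ccr6 difference was not called. Each is the 250 bases before a RefSeq start (GRCm38.p6), read 5′ to 3′ on the gene's strand, with capitals for AGGTCA or its reverse complement, a core half-site read by many nuclear receptors.
Il17a promoter (chr1:20730655-20730904, plus strand): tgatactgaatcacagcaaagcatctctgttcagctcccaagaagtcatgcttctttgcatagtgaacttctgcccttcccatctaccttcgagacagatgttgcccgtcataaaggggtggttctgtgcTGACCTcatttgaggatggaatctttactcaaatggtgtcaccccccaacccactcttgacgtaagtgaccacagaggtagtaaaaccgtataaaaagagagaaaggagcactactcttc
Il17f promoter (chr1:20784271-20784520, minus strand): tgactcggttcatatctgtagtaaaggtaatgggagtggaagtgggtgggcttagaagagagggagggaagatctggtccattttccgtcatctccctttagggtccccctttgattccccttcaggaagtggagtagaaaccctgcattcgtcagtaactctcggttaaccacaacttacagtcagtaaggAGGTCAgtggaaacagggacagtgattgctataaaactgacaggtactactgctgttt
Il23r promoter (chr6:67491856-67492105, minus strand): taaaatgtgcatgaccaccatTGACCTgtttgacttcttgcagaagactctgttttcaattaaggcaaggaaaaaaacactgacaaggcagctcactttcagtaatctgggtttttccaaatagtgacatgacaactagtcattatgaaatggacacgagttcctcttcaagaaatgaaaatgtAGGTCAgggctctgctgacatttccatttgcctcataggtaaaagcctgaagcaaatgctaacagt
Ccr6 promoter (chr17:8235793-8236042, plus strand): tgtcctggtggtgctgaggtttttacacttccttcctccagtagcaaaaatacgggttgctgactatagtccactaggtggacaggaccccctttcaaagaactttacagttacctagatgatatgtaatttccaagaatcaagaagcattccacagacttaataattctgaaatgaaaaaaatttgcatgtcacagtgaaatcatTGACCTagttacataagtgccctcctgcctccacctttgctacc
The motif began 120 bases before the start in Il17a, 58 in Il17f, 229 and 66 in Il23r, and 44 in Ccr6. A further Ccr6 start in RefSeq, with its window at chr17:8242276-8242525, held no match. The Il17f window lies inside the GENCODE span given above, because the RefSeq start used here is not the GENCODE start. Of 32851 promoter windows of this length, 14.0% held at least 1 match on either strand. A match is a description of the letters and not a bound site.

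The 4 libraries held 56649 barcodes and 90958101 to 102883449 UMIs each, and 52711 cells were kept after filters. Runx1t1 had 101 and 108 UMIs in the fusion libraries against 15 and 37 in the control libraries, in cells sorted against the reporter. At least 1 Cd3d, Cd3e or Cd3g UMI was present in 49655 cells, which were called T cells, and all 6 markers of T cells were above 0 in each pool. T cells with a Trdc UMI, the constant region of the delta chain, were called Trdc T cells, and the rest were split by Cd4 and Cd8a or Cd8b1 UMIs into Cd4, Cd8, co-receptor-negative and doubly marked cells. There were 3999 Trdc, 7056 Cd4, 25782 Cd8 and 11156 co-receptor-negative T cells, with medians of 6603, 5090.5, 7007 and 5320 UMIs per cell. The gates are loose, since a cell can miss a UMI of its co-receptor or of Trdc. Paired alpha and beta chains were found in the receptor library for 19.4% of Trdc T cells. Markers of other cells differed between the groups. Over all T cells the summed level of 7 neutrophil and myeloid markers was 35.8 and 44.0 CPM (UMIs scaled to the same total in each class and pool) in the fusion pools and 806 and 236 in the control pools, and that of 5 NK and innate markers was 284 and 224 against 635 and 522. Any pair of libraries shared 219 to 255 barcodes. In 2 libraries, fusion pool 1 and control pool 1, the doublet caller marked under 0.5% of barcodes, so the 5% of barcodes with the highest doublet scores were removed there instead.

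Il17a and Il23r were highest in Trdc T cells, next in co-receptor-negative T cells, then in Cd4 and last in Cd8 T cells, with the 4 pools together. Il17f was also highest in Trdc T cells, at 6.58 CPM, with 2.07 in co-receptor-negative and 1.98 in Cd4 T cells. Ccr6 was at 15 CPM in Trdc, 11.2 in Cd4, 7.57 in co-receptor-negative and 0.462 in Cd8 T cells. Trdc T cells held 58.4% of the 7119 Il17a UMIs found in T cells, 45.8% of the 428 Il17f UMIs and 43.1% of the 594 Il23r UMIs, although they were 8.05% of T cells. They held 28.1% of the 1589 Ccr6 UMIs, and Cd4 T cells held 28.2%. Il17a, Il17f, Il23r and Ccr6 UMIs were present in 646, 142, 389 and 891 T cells, and 1347 T cells, 2.71% of all, held at least 1 of the 4.

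**Figure D1:**
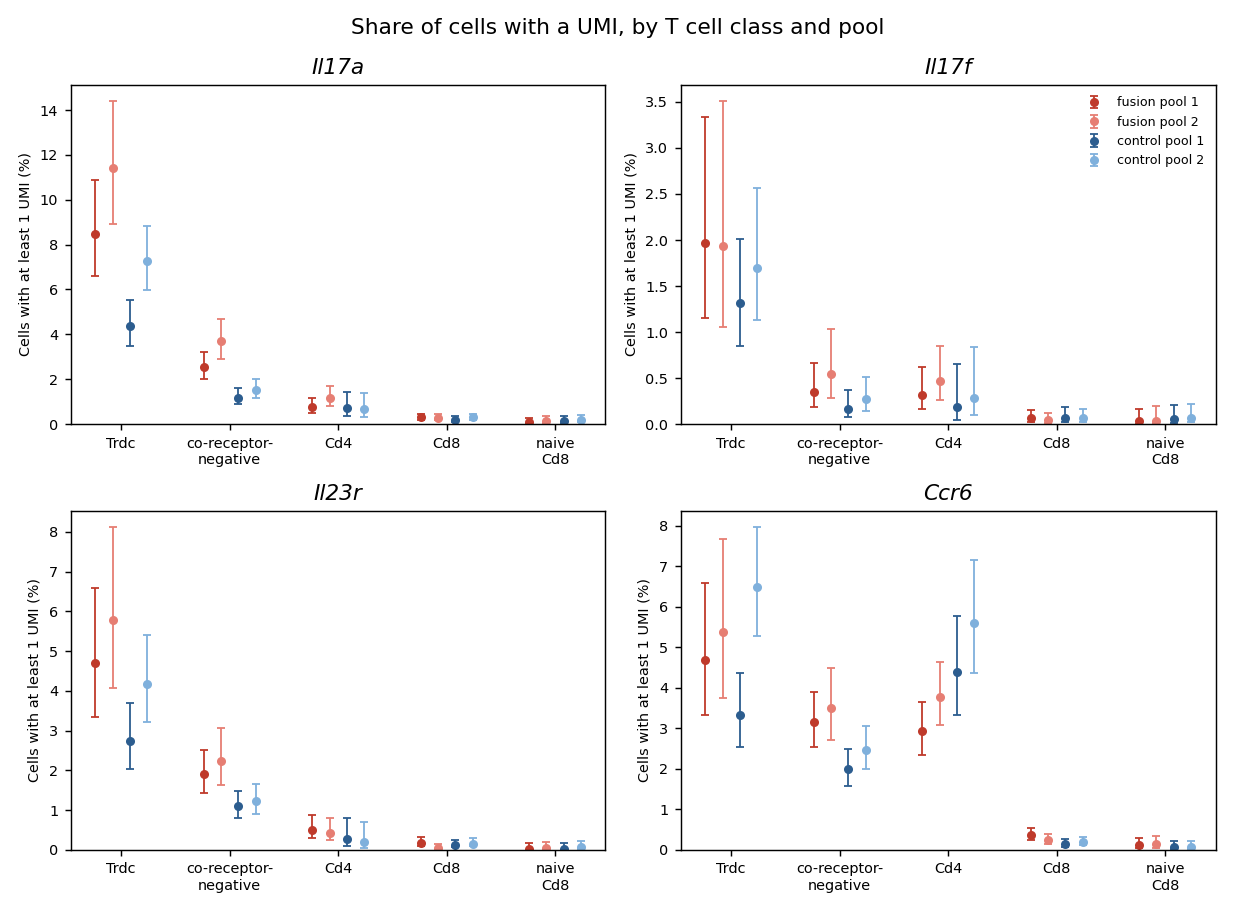
Share of cells with at least 1 UMI of each gene (vertical axis, %) in Trdc, co-receptor-negative, Cd4, Cd8 and naive Cd8 T cells, with 1 point per pool and 95% Wilson intervals that cover counting error only. Il17a, Il17f and Il23r lie highest in Trdc T cells in the 4 pools, and Ccr6 also reaches 2.93% to 5.60% in Cd4 T cells.

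For Il17a, 8.48% and 11.4% of Trdc T cells held a UMI in the fusion pools and 4.38% and 7.28% in the control pools, and the level over the class was 158 and 209 CPM against 85.5 and 162 CPM. In co-receptor-negative T cells the shares were 2.53% and 3.68% against 1.18% and 1.52%, and the levels 29.2 and 80.8 against 17.4 and 29.8 CPM. In Cd4 T cells they were 0.741% and 1.16% against 0.718% and 0.665%, with levels of 11.5 and 11 against 19.2 and 2.75 CPM. Every pool kept the order Trdc, co-receptor-negative, Cd4 in the share of cells, but in control pool 1 the Cd4 level was above the co-receptor-negative level. There, 8 Cd4 T cells held 108 UMIs and a single cell held 48.1% of them, and without that cell the level was 9.94 CPM. In Cd8 T cells Il17a was present in 0.302% and 0.283% against 0.193% and 0.296% of cells.

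Cd8 T cells chosen by naive T cell markers, Ccr7 among them, which should not make IL-17, served as the background for UMIs from free RNA. Of 13219 such cells, 0.144% held an Il17a UMI, 0.0454% Il17f, 0.0378% Il23r and 0.0908% Ccr6, at a median of 7930 UMIs per cell. The Cd8 T cell shares over the 4 pools, 0.272% for Il17a, 0.0582% for Il17f, 0.128% for Il23r and 0.237% for Ccr6, were above this background, least so for Il17f, and the background cells are themselves part of the Cd8 class. Thinning to 2000 UMIs took only cells with at least that many. It left out 59 of 3999 Trdc and 1441 of 11156 co-receptor-negative T cells. The Il17a shares were then 5.68% in Trdc, 1.64% in co-receptor-negative, 0.590% in Cd4, 0.136% in Cd8 and 0.0456% in naive Cd8 T cells, in the same order. These shares therefore mix depth with the cells left out.

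Il17f was present in 1.97% and 1.93% of Trdc T cells in the fusion pools and 1.31% and 1.70% in the control pools. The level was 8.77 and 9.01 against 4.74 and 6.42 CPM. In Cd4 T cells it was found in 0.312% and 0.473% against 0.180% and 0.285% of cells, and in co-receptor-negative T cells in 0.350% and 0.543% against 0.168% and 0.268%. These are few cells, since 65 Trdc, 33 co-receptor-negative and 24 Cd4 T cells held the whole of its signal in those classes, and 1 cell gave 44.7% of the UMIs in Trdc T cells of fusion pool 2.

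Il23r was present in 4.70% and 5.78% of Trdc T cells in the fusion pools and 2.75% and 4.18% in the control pools, with levels of 12.6 and 11.6 against 5.47 and 8.66 CPM. In co-receptor-negative T cells the shares were 1.91% and 2.23% against 1.09% and 1.22%, and in Cd4 T cells 0.507% and 0.430% against 0.269% and 0.190%. Ccr6 was present in 4.70% and 5.39% against 3.34% and 6.50% of Trdc T cells, and in 2.93% and 3.78% against 4.4% and 5.60% of Cd4 T cells. In co-receptor-negative T cells Ccr6 was present in 3.15% and 3.50% against 1.99% and 2.47%. By share, both fusion pools were higher for Il17a, Il17f and Il23r in Trdc, co-receptor-negative and Cd4 T cells. For Ccr6 both fusion pools were higher in co-receptor-negative T cells, lower in Cd4 T cells and inside the control range in Trdc T cells. How many of all genes separate by share was not worked out. Median depth was 7170.5 and 6913 against 6324.5 and 6673 UMIs in Trdc T cells. It was 5114.5 and 5486 against 4613 and 4531 in Cd4, and 4678 and 4620 against 5681 and 5644 in co-receptor-negative T cells.

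The differences between classes were tested with edgeR on UMIs summed per pool and class, 16 sums with the pool as a block, with adjusted p-values over 12528 genes. Against Cd4 T cells, 3 of the 4 genes were called higher in Trdc T cells, where 35.2% of all genes were called in either direction. Il17a was higher by 3.99 on the log2 scale (SE 0.44, adjusted p = 1.35e-05), Il23r by 3.61 (SE 0.36, adjusted p = 6.99e-06) and Il17f by 2.19 (SE 0.50, adjusted p = 0.00392). Ccr6 differed by 0.44 (SE 0.28, adjusted p = 0.241) and was not called. These 4 results kept their direction and their side of the threshold under each alternative run. Against Cd8 T cells all 4 were called higher in Trdc T cells, by 6.22, 6.13, 5.23 and 4.88 for Il17a, Il17f, Il23r and Ccr6 (19.1% of genes called), and against co-receptor-negative T cells by 2.17, 1.77, 1.16 and 0.97, with edgeR adjusted p-values of 0.00303 to 0.0403 (9.68% called).

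Among the other classes, the 4 genes were called higher in Cd4 than in Cd8 T cells (46.3% of genes called) and lower in Cd8 than in co-receptor-negative T cells (37.0% called). Between Cd4 and co-receptor-negative T cells, neighbours in the order, 2 of the 4 were called (29.6% called). Il17a was lower in Cd4 T cells by 1.82 and Il23r by 2.45 on the log2 scale. Il17f differed by -0.43 (SE 0.52) and Ccr6 by 0.53 (SE 0.27), and neither was called. So the order held for Il17a and Il23r at each step between the whole classes. For Ccr6 the levels in Cd4 T cells were not separated from those in Trdc or co-receptor-negative T cells. Among cells with paired chains but neither the MAIT nor the iNKT chain, the shares ran the other way. Il17a was present in 0.999% of such Cd4 and 0.540% of such co-receptor-negative T cells, and Il23r in 0.452% and 0.393%. For Il17a this held in each pool, and for Il23r in the fusion pools only. These shares were not tested.

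**Figure D2:**
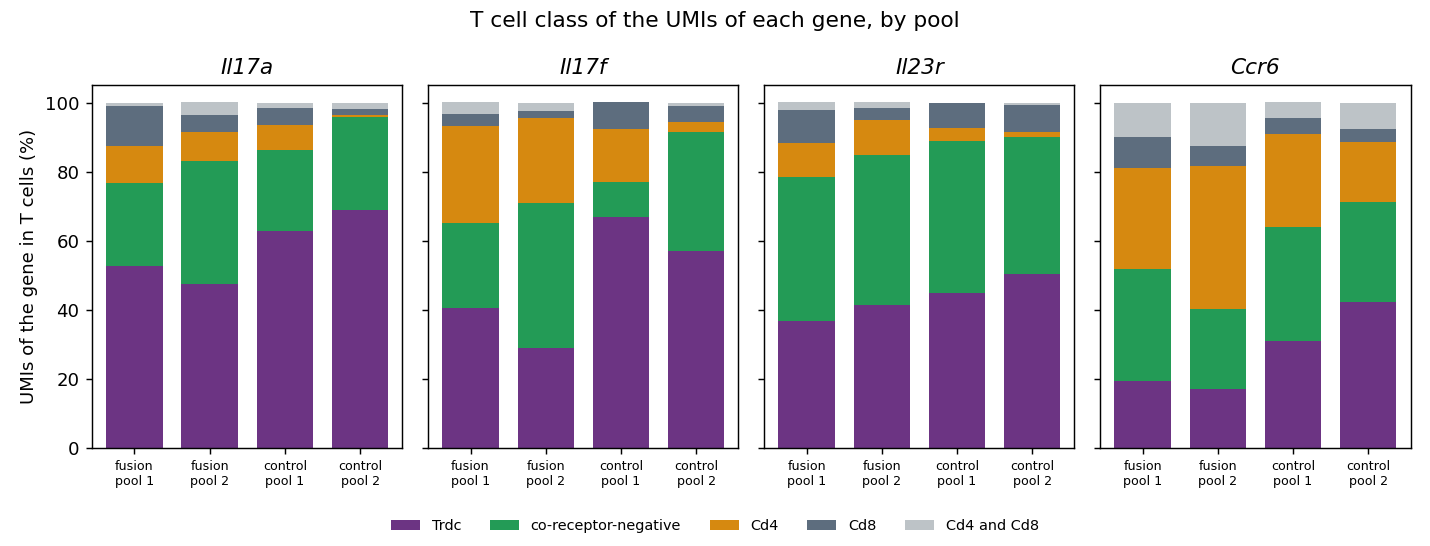
Share of the UMIs of each gene in T cells (vertical axis, %) that lay in each class, with 1 stacked bar per pool. Trdc T cells gave 62.7% and 68.8% of the Il17a UMIs in the control pools and 52.7% and 47.5% in the fusion pools, and Cd4 T cells gave 17.4% to 41.3% of the Ccr6 UMIs.

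The 4 genes were often found in the same cells. Of the 276 Trdc T cells with an Il17a UMI, 56.2% also held Ccr6, 44.6% Il23r and 20.3% Il17f. Read the other way, Il17a was present in 86.2% of 65 Il17f cells, 79.9% of 194 Ccr6 cells and 78.3% of 157 Il23r cells of that class, against 6.90% of the class. In Cd4 T cells, Ccr6 was mostly found without Il17a: 12.2% of 271 Ccr6 cells held it, while 54.1% of 61 Il17a cells held Ccr6. All 4 genes were found together in 27 T cells, 19 of them Trdc T cells. An Il17a cell of the Trdc class held 15.1 Il17a UMIs on average, and a Ccr6 cell 2.30 Ccr6 UMIs. These are counts of cells, which share a library, and no test was made on them.

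Il17a cells among Trdc T cells differed from the others in some receptor segments and in most genes of the lists. Tcrg-V6, a gamma segment known from a type 17 subset, was present in 62.7% of the 276 Il17a cells and 2.42% of the 3723 other Trdc T cells, and the delta segment Trdv4 in 66.7% and 5.83%. Other segments were closer, with Trgv2 in 64.9% and 49.3% and Tcrg-V4 in 33.7% and 29.5%. By pool, Trdv4 was found in 75%, 74.6%, 56.7% and 63.8% of Il17a cells in fusion pools 1 and 2 and control pools 1 and 2, and in 6.79%, 3.91%, 5.34% and 6.68% of the others. Blk, a kinase of gamma-delta type 17 cells, was present in 92.0% of Il17a cells and 1.58% of the others, and Sox13, a transcription factor of the same subset, in 64.1% and 1.24%. Of 16 regulators and signal receptors, 14 were found in a larger share of Il17a cells than of the others, and Il6ra (4.35% and 10.4%) and Etv5 (0.725% and 1.58%) in a smaller one. Of the 16 further cytokine and surface genes, 14 were found in a larger share, Il21 in a smaller one, and Ccl20 in no cell of either. The 10 type 1 genes were all found in a smaller share with the pools together, among them Ifng, the type 1 cytokine, with 2.54% and 39.2%, and Cd27, with 9.06% and 62.7%. Il2rb (83.3% and 88.1%) and Gzmb (15.2% and 17.9%) were close. Each ran the other way in a pool, Il2rb in fusion pool 1 (89.3% and 86.1%) and Gzmb in control pool 2 (21.3% and 17.9%). The median depth was 6687.5 UMIs in Il17a cells and 6598 in the others.

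A V segment is often seen with a second one, so cells with a single detected gamma V segment were also set side by side. The segments counted were Tcrg-V1, Trgv2, Tcrg-V4, Tcrg-V5, Tcrg-V6 and Tcrg-V7. Tcrg-V3 was not counted, and was present in 0.725% of Il17a cells and 2.23% of the other Trdc T cells. Of 62 Trdc T cells with Tcrg-V6 alone, 56.5% held Il17a, 33.9% Il23r, 19.4% Ccr6 and 3.23% Il17f. By pool Il17a was present in 50.0% of 12, 78.9% of 19, 35.0% of 20 and 63.6% of 11 such cells, in the order fusion 1, fusion 2, control 1, control 2. Il17a was present in 4.06% of 320 cells with Tcrg-V4 alone, 2.46% of 771 with Trgv2 alone and 0.394% of 254 with Tcrg-V1 alone. Il17f was present in 1.88% of the Tcrg-V4 cells and 1.04% of the Trgv2 cells, and its share in Tcrg-V6 cells rested on 2 cells.

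**Figure D3:**
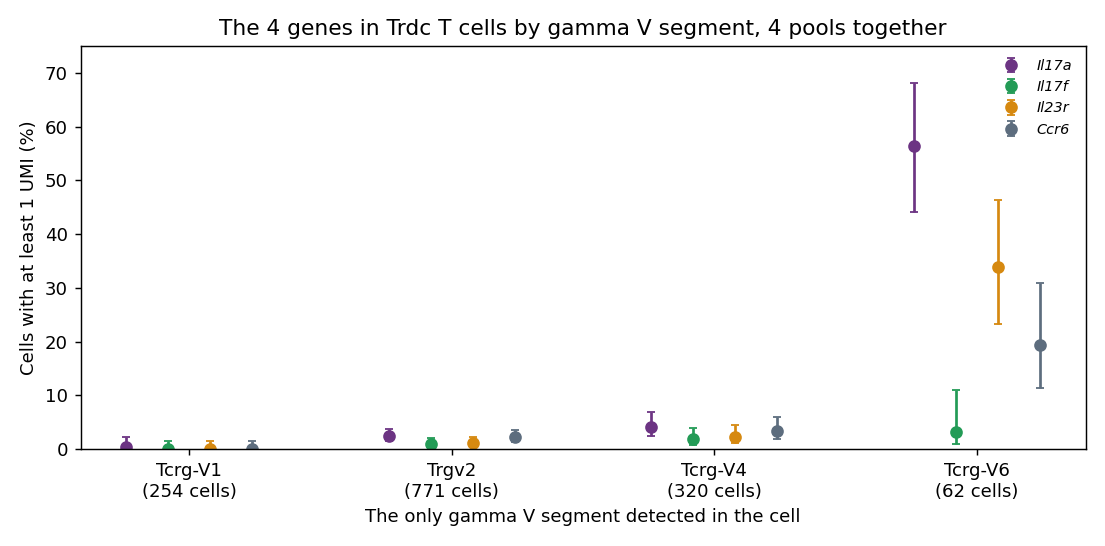
Share of Trdc T cells with a UMI of each gene (vertical axis, %) among cells in which a single gamma V segment was detected, Tcrg-V3 not counted, over the 4 pools, with 95% Wilson intervals for counting error. Il17a, Il23r and Ccr6 lie highest in the Tcrg-V6 cells, at 56.5%, 33.9% and 19.4%, and the Il17f interval there overlaps those of the other segments.

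The alpha-beta cells with the highest shares of 3 of the genes were those with the MAIT alpha chain. The receptor libraries gave 108 T cells with a TRAV1-TRAJ33 chain, 43 and 30 in the fusion pools and 14 and 21 in the control pools, 0.331% and 0.244% of T cells against 0.116% and 0.171%. With 2 pools per group an exact permutation test cannot go below p = 0.333, and these shares are given as values with no test. The 3 most frequent nucleotide sequences of the CDR3 are shown because they identify the chain. There were 20 distinct sequences, and all 104 cells with such a chain as the leading alpha chain had a CDR3 of 36 bases. Capitals mark the 3 positions at which these sequences differ.
TRAV1-TRAJ33 CDR3 in 68 cells: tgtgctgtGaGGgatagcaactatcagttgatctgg
TRAV1-TRAJ33 CDR3 in 8 cells: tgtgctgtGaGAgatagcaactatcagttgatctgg
TRAV1-TRAJ33 CDR3 in 3 cells: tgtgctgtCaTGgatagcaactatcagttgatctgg
The first was found in 26, 20, 12 and 10 cells of fusion pools 1 and 2 and control pools 1 and 2. Of the 108 cells, 86 were co-receptor-negative and 22 carried Cd8.

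In TRAV1-TRAJ33 cells Il17a was present in 58.1% and 73.3% of cells in the fusion pools and 35.7% and 38.1% in the control pools, with levels of 607 and 789 against 385 and 578 CPM. Il23r was present in 44.2% and 43.3% against 28.6% and 33.3%, and Ccr6 in 23.3% and 26.7% against 21.4% and 28.6%. The shares of both fusion pools lay above those of both control pools for Il17a and Il23r, on 14 to 43 cells a pool. How many of all genes separate in this way in these cells was not worked out. The Il23r levels overlapped, at 97.7 and 78.0 against 60.1 and 87.1 CPM. For Ccr6 the shares overlapped. Median depth was higher in the fusion pools, at 6346 and 6826.5 against 5880 and 5298 UMIs per cell. In cells thinned as above, the shares were 38.6% and 51.4% against 24.4% and 35.9% for Il17a. For Il23r they were 18.3% and 15.6% against 10.3% and 14.7%, with the nearest pools closer than at full depth. Thinning left out 2 cells of control pool 1. Il17f had 1 UMI, in 1 of the 108 cells. Of the 60 TRAV1-TRAJ33 cells with Il17a, 1 held Il17f, 1.67% (95% Wilson interval 0.295 to 8.86), against 56 of 276, 20.3% (16 to 25.4), in Trdc T cells, with intervals that cover counting error only.

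**Figure D4:**
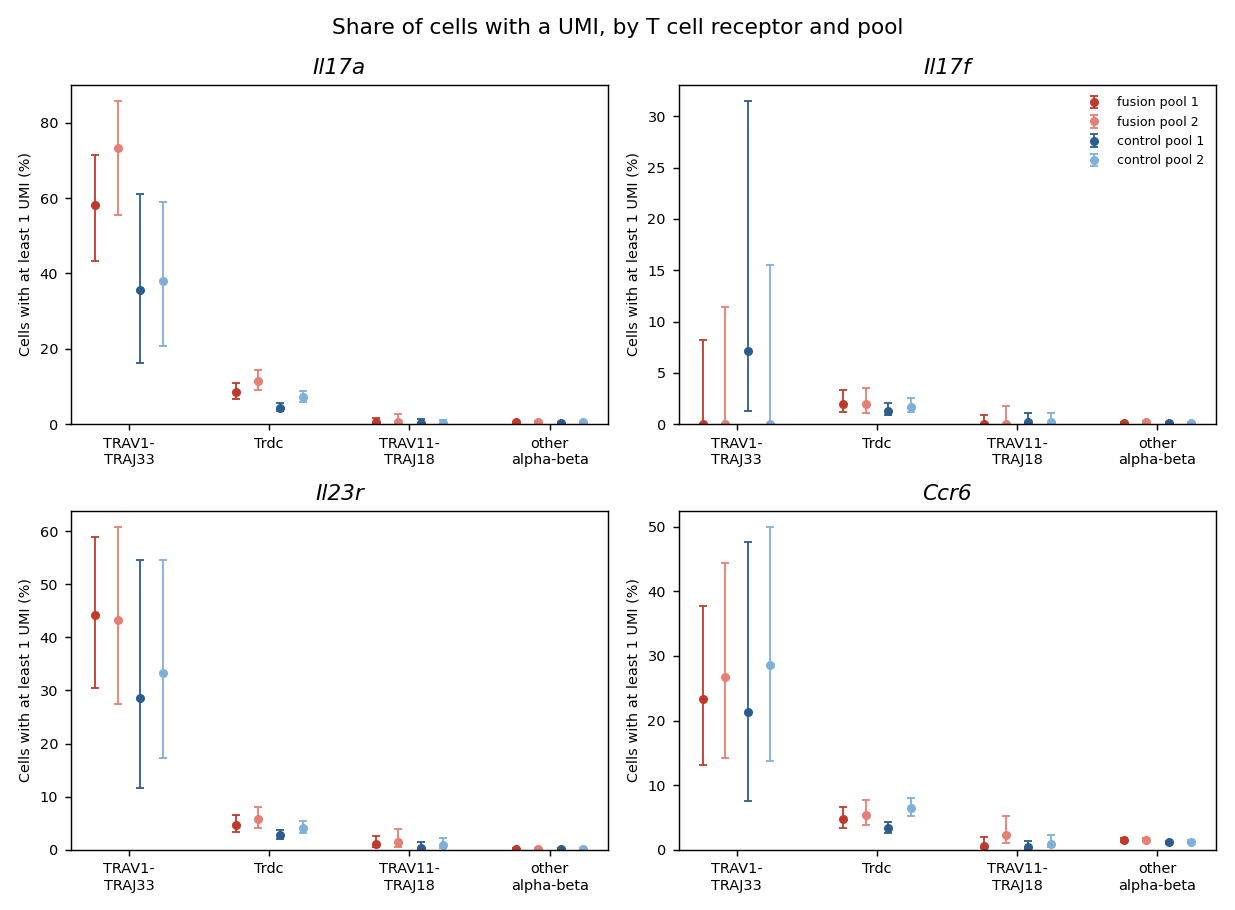
Share of cells with a UMI of each gene (vertical axis, %, with its own scale in each panel) by receptor, with 1 point per pool and 95% Wilson intervals for counting error. TRAV1-TRAJ33 cells lie highest for Il17a, Il23r and Ccr6 in the 4 pools, from 35.7% to 73.3% for Il17a, and TRAV11-TRAJ18 cells reach at most 0.461% for Il17a.

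Cells with the iNKT alpha chain were more common than those with the MAIT chain and had lower shares of the 4 genes than Trdc T cells. Of 1711 TRAV11-TRAJ18 cells, 0.351% held Il17a, 0.117% Il17f, 0.877% Il23r and 0.877% Ccr6. The Il23r share, from 15 cells, was above the 0.202% of other alpha-beta T cells and the 0.0378% of naive Cd8 T cells. Among the other alpha-beta cells it was 0.452% in Cd4 and 0.393% in co-receptor-negative T cells. In control pool 1 the TRAV11-TRAJ18 share was 0.382%, below the 0.489% of co-receptor-negative other alpha-beta cells. Among TRAV11-TRAJ18 cells, control pool 1 had the highest Il17a level, 14.9 CPM, from 2 cells, and the other pools had 0.640 to 0.698 CPM. A comparison of the 3 receptor classes was added after these values were seen (edgeR, 12 sums, pool as a block, 10602 genes). Il17a, Il23r and Ccr6 were called higher in TRAV1-TRAJ33 than in TRAV11-TRAJ18 cells, by 6.68 (SE 0.38), 4.78 (SE 0.34) and 4.81 (SE 0.39), where 15.4% of genes were called, and higher than in Trdc T cells by 1.73 (SE 0.24), 2.77 (SE 0.27) and 1.94 (SE 0.28), where 14.1% were called. Il17f differed by 1.22 (SE 1.96) and -2.65 (SE 1.21) in these comparisons and was not called in either (edgeR adjusted p = 0.762 and 0.172), with 1 UMI in the TRAV1-TRAJ33 sums. Against TRAV11-TRAJ18 cells all 4 genes were called higher in Trdc T cells, by 4.95, 3.87, 2.01 and 2.87 (30.2% called). With DESeq2 the Il17a difference from Trdc T cells was 1.74 with an adjusted p of 0.275. The classes are of uneven size, and the TRAV1-TRAJ33 sums held 83198 to 286716 UMIs. The Trdc class was taken whole, and 6.90% of its cells held Il17a. In its 62 cells with Tcrg-V6 alone the shares were 56.5% for Il17a, 33.9% for Il23r, 19.4% for Ccr6 and 3.23% for Il17f. In TRAV1-TRAJ33 cells over the 4 pools they were 55.6%, 39.8%, 25% and 0.926%. A difference between these 2 sets of cells was not tested.

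Other alpha-beta T cells with paired chains held 149 Il17a cells of 33105 such cells, 0.450%, and 448 Ccr6 cells, 1.35%. Of the 646 Il17a T cells, 60 carried the TRAV1-TRAJ33 chain. Among co-receptor-negative T cells, 129 of the 219 Il17a cells had no paired chains, and Il17a was present in 3.40% of all 3791 cells without them and in 0.540% of the 6108 other alpha-beta cells. The 233 Il17a T cells with paired chains held 223 clonotypes, and the largest of these had 2 of them.

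Each group comparison asked whether the presence of fusion-expressing marrow went with a change of the genes in T cells that lacked the reporter. None of the 4 genes was called in any of the 5 comparisons, by edgeR or by DESeq2, on 2 fusion and 2 control pools. An unadjusted p under 0.05 in edgeR was reached by 2 of them in Trdc, 4 in co-receptor-negative and 1 in Cd4 T cells, and by none in Cd8 or all T cells. The same threshold was reached by 1213 of 10864 genes in Trdc, 2912 of 12450 in co-receptor-negative, 2107 of 11567 in Cd4, 2865 of 13225 in Cd8 and 3713 of 14484 in all T cells. In Trdc T cells, where 0.0736% of 10864 genes were called, Il17a differed by 0.52 on the log2 scale, fusion over control (SE 0.28, adjusted p = 0.539), Il17f by 0.63 (SE 0.25, adjusted p = 0.416), Il23r by 0.75 (SE 0.27, adjusted p = 0.366) and Ccr6 by -0.13 (SE 0.35, adjusted p = 0.924). The CPM of the groups did not overlap, with the fusion pools higher, for 2 of the 4, Il17f and Il23r, as for 26.0% of all genes tested. With every gene of at least 1 UMI in the fit, Il17a (0.51, adjusted p = 0.000558) and Il23r (0.73, adjusted p = 0.0292) were called. That fit called many more genes over all than the filtered one, a count given further on. Of 10 type 1 genes, 3 were called higher and 3 lower in it. In these cells the myeloid markers summed to 9.16 and 6.16 CPM in the fusion pools, where 1 of the 7 was at 0, and 1040 and 68.9 in the control pools, and the NK and innate markers to 722 and 547 against 1110 and 899, and their part in the result was not tested.

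In co-receptor-negative T cells, where 6.31% of 12450 genes were called, the 4 estimates were above 0 and none was called. Il17a differed by 1.10 (SE 0.44, adjusted p = 0.192), Il17f by 1.88 (SE 0.74, adjusted p = 0.189), Il23r by 0.91 (SE 0.22, adjusted p = 0.0560) and Ccr6 by 0.62 (SE 0.17, adjusted p = 0.0870), by edgeR. The CPM did not overlap for 3 of the 4, with the fusion pools higher, as for 37.4% of genes. With the class restricted to cells with a TRA and a TRB contig, Il17a (2.03, adjusted p = 0.0253), Il23r (1.23, adjusted p = 0.0378) and Ccr6 (0.94, adjusted p = 0.0265) were called. The share of all genes called in this class with that gate is not given here, so these calls have no background beside them. Without fusion pool 1 the Il17a estimate was 1.67, and without control pool 2 the Il17f estimate was 3.34. TRAV1-TRAJ33 cells were 34 of 2572 and 24 of 1657 co-receptor-negative T cells in the fusion pools and 12 of 3566 and 16 of 3361 in the control pools. In the other alpha-beta cells of the class Il17a was present in 0.598% and 1.18% against 0.391% and 0.407% of cells, and Ccr6 in 3.06% and 3.03% against 1.52% and 1.68%. Il23r was not higher there, at 0.299% and 0.395% against 0.489% and 0.356% of cells. Its mean level was 0.694 CPM in the fusion pools and 0.968 in the control pools. Il17f was present in 0.0747% and 0.395% against 0% and 0.102% of these cells. The myeloid markers summed to 72.7 and 163 CPM in the fusion pools and 2150 and 733 in the control pools of this class, with all 7 above 0, and the NK and innate markers to 608 and 473 against 1250 and 1100, and their part in the result was not tested.

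In Cd4 T cells, where 1.78% of 11567 genes were called, Ccr6 was 7.49 and 11.3 CPM in the fusion pools and 17 and 15.1 in the control pools, a difference of -0.73 (SE 0.21, adjusted p = 0.142). Il17a differed by 0.08 (SE 0.58, adjusted p = 0.963) and Il17f by 0.76 (SE 0.52, adjusted p = 0.491), and Il23r had too few UMIs to be tested. The CPM did not overlap for Ccr6, lower in the fusion pools as for 30.5% of genes, and for Il17f, higher as for 19.9%. Without fusion pool 2, Ccr6 was called (-1.04, adjusted p = 0.0372). In Cd8 T cells, where 0.0302% of 13225 genes were called, Il17a differed by 0.95 (SE 0.54), Ccr6 by 0.34 (SE 0.39) and Il23r by -0.51 (SE 0.72), Il17f was not tested, and the Il17a estimate was -0.50 in Cd8 T cells with a TRA and a TRB contig.

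**Figure D5:**
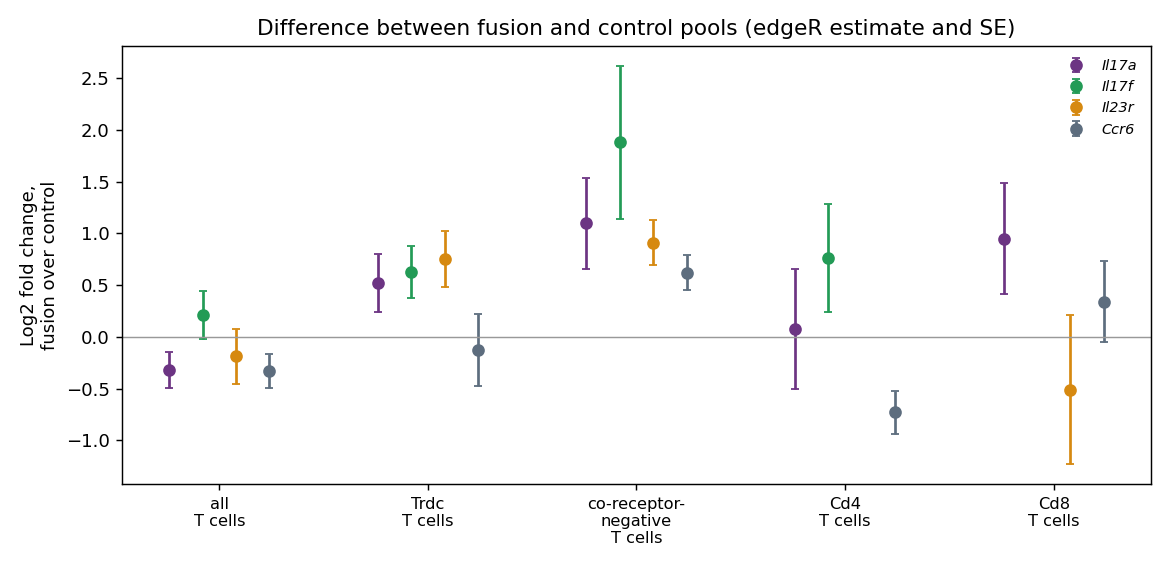
Log2 fold change of each gene (vertical axis), fusion over control, in all T cells and in 4 classes, with points for the edgeR estimate and bars for its SE, from 2 pools per group. No point passed the threshold, and the Il17a point lies at -0.32 in all T cells and at 0.52 in Trdc T cells.

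Over all T cells the classes were not present in the same shares in the groups. Trdc T cells were 5.08% and 4.23% of T cells in the fusion pools and 12.6% and 10.5% in the control pools, and co-receptor-negative T cells 19.8% and 13.5% against 29.5% and 27.3%, while Cd4 T cells were 19.7% and 18.9% against 9.22% and 8.56%. Il17a was present in 1.27% and 1.42% of T cells in the fusion pools and 1.08% and 1.43% in the control pools, with levels of 17.3 and 20.6 against 18.9 and 26.6 CPM. The difference was -0.32 (SE 0.17, adjusted p = 0.306), below 0 where the Trdc and co-receptor-negative estimates were above it. Il17f differed by 0.21 (SE 0.23), Il23r by -0.19 (SE 0.27) and Ccr6 by -0.33 (SE 0.16), with edgeR adjusted p-values of 0.273 to 0.697, where 4.49% of 14484 genes were called. The CPM did not overlap for 1 of the 4, Ccr6, lower in the fusion pools as for 24.1% of genes.

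Whether the group difference itself differed between Trdc and Cd4 T cells was tested as an interaction (8 sums, pool as a block), in which 0.277% of 11561 genes were called. None of the 4 genes was called, with 0.52 (SE 0.72) for Il17a, -0.10 (SE 0.60) for Il17f and 0.69 (SE 0.38) for Ccr6. Il17a ranged from -1.92 to 1.77 when control pool 1 or control pool 2 was left out. Without control pool 2 it was called (edgeR adjusted p = 0.00815). The same test for co-receptor-negative against Cd4 T cells was added after the opposite directions of Ccr6 had been seen. Ccr6 was called there, with a difference of 1.38 (SE 0.23, edgeR adjusted p = 0.0207), and Il17a (0.97, SE 0.82), Il17f (1.15, SE 1.08) and Il23r (0.16, SE 0.69) were not, where 3.61% of 12587 genes were called. The Ccr6 call was lost with DESeq2 (adjusted p = 0.133), without control pool 1 (1.20, adjusted p = 0.165) and without control pool 2 (1.58, adjusted p = 0.0609).

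Other type 17 genes were taken from lists. Of 16 regulators and signal receptors, 6 were called higher and 7 lower in Trdc than in Cd4 T cells, and 3 were not called, where 35.2% of all genes were called in either direction. Blk (7.03), Sox13 (5.87) and Il1r1, a receptor for IL-1 (3.69), were among the higher on the log2 scale, and Il6ra, a subunit of the IL-6 receptor (-1.74), Batf (-1.20) and Irf4 (-1.13), transcription factors of activated T cells, among the lower. Of 15 further cytokine and surface genes tested, 9 were called higher and 1 lower. They included Cd163l1, a scavenger receptor of gamma-delta T cells (8.26), Kcnk1, a potassium channel (7.46), and Il17re, a receptor subunit of the IL-17 family (3.13). Of 10 type 1 genes, 5 were also called higher and 1 lower in Trdc than in Cd4 T cells. The medians of the 3 lists were -0.12, 1.86 and 0.60, beside -0.02 over all 12528 genes.

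Against the whole Trdc class, TRAV1-TRAJ33 cells were called higher for 11 of the 16 regulators and lower for none, where 14.1% of all genes were called in either direction. Zbtb16, the transcription factor PLZF of innate-like T cells, was higher by 2.91, Il1r1 by 2.88 and Rora, a nuclear receptor, by 2.49. Of 13 cytokine and surface genes tested, 10 were higher and 1 lower, the latter Cd163l1 at -5.00. Of 10 type 1 genes none was higher and 9 were lower, among them Ccl5 (-4.54), Eomes (-5.07) and Ifng (-2.49). The list medians were 1.35, 2.37 and -1.72 beside -0.11 over all genes.

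Between groups, 9 of the 16 regulators were called higher in the fusion pools among co-receptor-negative T cells and none lower, where 6.31% of all genes were called in either direction, with a list median of 0.78 beside -0.01 over all 12450 genes. Rora was higher by 1.27 (SE 0.07, edgeR adjusted p = 0.00075), Maf, a transcription factor of type 17 and other effector T cells, by 1.31, Irf4 by 1.03 and Zbtb16 by 0.85. This is the class in which the summed myeloid markers ran from 72.7 to 163 CPM in the fusion pools and from 733 to 2150 in the control pools, and the part of those cells in the list's values was not tested. Of 13 cytokine and surface genes tested, 1 was called, Tmem176a (0.80). Of 10 type 1 genes 1 was called, Tbx21, the gene of T-bet, at -0.69. In Trdc T cells 1 of 16 regulators was called, with a list median of 0.45, and none of 12 cytokine and surface genes, and in Cd8 T cells 0 of 16 and 0 of 14, in comparisons that called 8 and 4 genes in all. The 1 regulator called in Trdc T cells was Rora (0.92, edgeR adjusted p = 0.0446). With each pool left out in turn, 7 to 10 of the regulators, 0 to 8 of the cytokine and surface genes and 1 to 5 of the type 1 genes were called in co-receptor-negative T cells. In Trdc T cells 0 to 4 regulators were called, with 0 without control pool 1 and without fusion pool 2, and 4 without fusion pool 1.

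Genes that followed the members over the 16 sums of pool and class are given as a description, by Pearson's r of log2(CPM + 1), among genes with at least 200 UMIs. The sums share pools and class make-up, so no test was made. Among the most alike to Il17a were Mmp25, Il23r and Il17re (r = 0.96 each) and Adam12 (r = 0.95). For Il23r they were Il17re (r = 0.98), Mmp25, Ppp1r14c, Blk and Abi3bp (r = 0.97). For Il17f they were Nxnl2 and Stmn2 (r = 0.96), Il17a, Matn2 and Adam12 (r = 0.94). Ccr6 stood apart, with Rnase4 and Tspo (r = 0.94), Cpd and Slc25a24 (r = 0.93), and with r = 0.77 to Il17a and 0.67 to Il23r. Among receptor segments Tcrg-V6 was nearest to Il17a (r = 0.93), Il17f (r = 0.87) and Il23r (r = 0.96), and Trav21-dv12 to Ccr6 (r = 0.86).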

How the data were processed

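Gene expression and T cell receptor libraries were made from 4 pools of bone marrow T cells. The deposited gene values are UMI counts per cell, made by the authors with Cell Ranger 6.1.2 against GRCm38, and the annotation release was not given in the sources used here. The deposited contig tables gave receptor chains. Cells with at least 200 genes and at most 15% mitochondrial counts were kept, and doublets were removed with Scrublet in scanpy 1.11.5 at an expected rate of 0.05. Counts were summed per pool and class and tested with edgeR 4.0.16 (R 4.3.3), with its quasi-likelihood test, TMM scaling, filterByExpr and Benjamini-Hochberg adjustment at 0.05 over all genes tested. DESeq2 1.42.0, RLE scaling, no filter on low counts, other gates, doublets kept and each pool left out in turn were the alternatives. Shares have 95% Wilson intervals, which cover counting error only. The members and lists were chosen with earlier results of these data known, and from each list the genes named are among the 8 with the lowest adjusted p of those that passed the test. Some genes of the lists and of the like patterns are not reported here by name.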

Additional observations from a re-analysis of the deposited data

Results flagged for a closer look

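Ccr6 stood out because its difference between the groups was not the same in co-receptor-negative and Cd4 T cells. In co-receptor-negative T cells it was 9.37 and 11.2 CPM in the fusion pools and 5.74 and 6.82 in the control pools, and in Cd4 T cells 7.49 and 11.3 against 17 and 15.1. The difference between these group effects was 1.38 on the log2 scale (SE 0.23, edgeR adjusted p = 0.0207), from a test added after the values had been seen. The call remained with RLE scaling (adjusted p = 0.0214), without a filter on low counts (0.000295), without fusion pool 1 (1.19, adjusted p = 0.0293) and without fusion pool 2 (1.57, adjusted p = 0.00655). It was lost with DESeq2 and without either control pool. The co-receptor-negative class can hold cells that missed a Cd4 UMI. Cd4 T cells were 19.7% and 18.9% of T cells in the fusion pools and 9.22% and 8.56% in the control pools. The part of class make-up in the Ccr6 result was not tested.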

How the results depend on the processing

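The differences of Il17a, Il17f and Il23r between Trdc and Cd4 T cells kept their direction and their calls under each alternative run. Of 360 results for single members under alternatives, 322 kept direction and side of the threshold, 14 became calls, 4 lost them and 20 reversed. The cause of these changes was not tested.

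The number of genes called between groups depended on the setting. With DESeq2 it was 1589 in all T cells (651 in the reported fit), 106 in Trdc (8) and 821 in Cd8 T cells (4). Without a filter on low counts it was 86 in all T cells, 666 in Trdc, 894 in Cd8 and 0 in Cd4 T cells, where edgeR called 206 with the filter, DESeq2 302, and 2220 had an unadjusted p under 0.05. With receptor chains as the gate it was 392 in all T cells and 13 in Cd8 T cells, with at least 2 Trdc UMIs 42 in Trdc T cells, and with doublets kept 34 in Trdc and 7 in Cd8 T cells. For the difference of group effects between Trdc and Cd4 T cells it was 32, and became 377 without the filter and 83 with at least 2 Trdc UMIs. For co-receptor-negative against Cd4 T cells it was 454, and became 274 with DESeq2 and 1069 without the filter. With each pool left out in turn the counts ran from 37 to 1774 in all T cells, 7 to 374 in Trdc, 1 to 354 in Cd4, 3 to 1644 in Cd8 and 561 to 814 in co-receptor-negative T cells. They ran from 18 to 202 and from 50 to 608 for the differences of group effects, from 3192 to 4236 for Trdc against Cd4 T cells, and from 996 to 1560 and 923 to 1381 for TRAV1-TRAJ33 against TRAV11-TRAJ18 and Trdc.

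Reversed estimates, none of them called, were Il17f in all T cells (-0.06) and Il17a in Cd8 T cells (-0.50) with receptor chains as the gate, and, in the difference of group effects between Trdc and Cd4 T cells, Il17a with DESeq2 (-0.04), Il17f with at least 2 Trdc UMIs (0.56) and with doublets kept (0.27), and Il23r with receptor chains as the gate (-0.80). With a pool left out, log2 estimates that crossed 0 ran from -0.55 to 0.10 for Il23r in all T cells, -0.60 to 0.52 for Ccr6 in Trdc, -0.70 to 2.04 for Il17a in Cd4, -1.98 to 0.25 for Il23r and -0.07 to 0.68 for Ccr6 in Cd8 T cells. In the difference between Trdc and Cd4 T cells they ran from -1.92 to 1.77 for Il17a, -1.58 to 0.76 for Il17f and -1.05 to 0.84 for Il23r, in that between co-receptor-negative and Cd4 T cells from -1.36 to 2.15, -0.94 to 3.11 and -0.65 to 0.70, and for Il17f in TRAV1-TRAJ33 against TRAV11-TRAJ18 cells from -3.76 to 3.05.

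The pools share only a replicate number. Deviations of same-numbered pools correlated with r = 0.206 to 0.293 over genes, on 2 pairs. With that number as a replicate block, 1678 genes were called in all T cells, 439 in Trdc, 610 in Cd4, 1156 in Cd8 and 1766 in co-receptor-negative T cells. Il17a was then called in Trdc T cells (0.58, edgeR adjusted p = 0.0127) and the 4 genes in co-receptor-negative T cells, with adjusted p of 0.000184 for Il17a, 0.00311 for Il17f, 0.0242 for Il23r and 0.0289 for Ccr6. Thinning to 2000 UMIs moved 62 of 80 shares of cells outside their intervals at full depth. Fewer UMIs per cell lower detection by themselves, so this count does not tell whether the order of classes or groups changed.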
